A study of Mus musculus with 17 samples.

Results

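The RNA levels of 10 genes that encode PIWI proteins and the factors that build PIWI-interacting RNAs (piRNAs) were followed in wild-type (WT) and mutant mouse male germ cells. The genes were chosen by name and comprised the PIWI proteins Piwil1, Piwil2 and Piwil4, the RNA helicases Ddx4 and Mov10l1, the granule and loading factors Mael, Asz1, Gtsf1 and Fkbp6, and the RNA methyltransferase Henmt1. All 10 were found among the 23980 genes listed for each of 2 stages. PolyA(+) RNA of C57BL6/J mice was sequenced in leptotene/zygotene (L/Z) spermatocytes, purified by fluorescence-activated cell sorting (FACS) at 3 to 4 weeks after birth, and in whole testes of newborns (postnatal day 0, P0). At L/Z each genotype (WT, Pld6 KO or Dnmt3l KO) had 2 libraries. Newborn testes gave 2 libraries of WT, 4 of Pld6 KO, 2 of Dnmt3l KO and 3 of the double mutant (DKO), which lacks both genes. The 50-bp single-end L/Z reads and the 100-bp paired-end P0 reads were quantified in separate tables. According to the labels the replicates are biological, without stating which came from the same litter. Germ cells of both mutants die late in zygotene, so the sorted mutant cells come from testes that lack later germ cells.

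PIWI proteins are guided by piRNAs to the RNAs of retrotransposons, which they cleave or whose genomic copies they mark for DNA methylation. In mice PIWIL2 and PIWIL4 act in fetal and newborn germ cells, and PIWIL1 is best known from pachytene spermatocytes and round spermatids. MOV10L1 binds the long precursor RNAs, PLD6 cuts them at the mitochondrial surface where ASZ1 is anchored, FKBP6 helps the chaperone HSP90 in loading, and HENMT1 methylates the 3′ ends of mature piRNAs. DNMT3L is the cofactor with which retrotransposons are methylated in prospermatogonia. The comparison therefore asks how the RNAs of the piRNA machinery behaved when piRNA production (Pld6 KO) or DNA methylation (Dnmt3l KO) was reduced.

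RefSeq promoter windows of GRCm38.p6, the same assembly as the mm10 build of the tables, matched 9 of the 10 genes. Each window spans 250 bases before and 50 after an annotated start site. Shown here are the upstream 250 bases of Piwil1, the gene with the largest fall among the 10, of Asz1, the one with the lowest adjusted p among those higher in a mutant, and of Fkbp6, which shares a motif pair with Piwil1. Capitals mark CACGTG, the palindromic E-box, and the MYB core AACNG on either strand (CNGTT on the other). In Fkbp6 a CACGTG and a CCGTT adjoin and form 1 run of capitals.
Piwil1: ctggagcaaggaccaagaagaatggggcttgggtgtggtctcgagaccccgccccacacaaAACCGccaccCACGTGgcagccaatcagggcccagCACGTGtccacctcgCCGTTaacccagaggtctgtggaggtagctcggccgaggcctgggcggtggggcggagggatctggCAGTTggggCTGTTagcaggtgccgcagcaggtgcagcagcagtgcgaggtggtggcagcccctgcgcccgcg
Fkbp6: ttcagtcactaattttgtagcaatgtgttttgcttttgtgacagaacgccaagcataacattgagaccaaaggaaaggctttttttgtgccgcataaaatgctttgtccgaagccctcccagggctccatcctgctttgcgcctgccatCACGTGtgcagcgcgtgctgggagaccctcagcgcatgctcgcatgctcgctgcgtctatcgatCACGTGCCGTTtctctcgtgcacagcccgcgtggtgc
Asz1: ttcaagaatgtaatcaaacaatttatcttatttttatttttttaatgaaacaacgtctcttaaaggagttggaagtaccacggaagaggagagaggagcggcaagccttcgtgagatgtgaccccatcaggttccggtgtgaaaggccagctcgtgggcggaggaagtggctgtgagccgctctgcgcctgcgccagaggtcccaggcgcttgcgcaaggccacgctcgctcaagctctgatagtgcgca
The stretches lie at chr5:128735996-128736245 on the plus strand, chr5:135350045-135350294 on the minus strand and chr6:18109062-18109311 on the minus strand. The Fkbp6 stretch falls within the annotated span of its own gene, which begins farther upstream. In the Piwil1 stretch an annotated first exon of another transcript begins before the start site used here. CACGTG occurred in the windows of 5 of the 9 genes (55.6%), namely Piwil1, Mael, Fkbp6, Ddx4 and Mov10l1, against 7.15% of 32851 RefSeq promoter windows and 11.6% of the 8701 windows with at least 20 CpG sites. Piwil1 and Fkbp6 held 2 copies each, and 0.594% of all windows held at least 2. Fkbp6 had 2 overlapping windows, which shared these copies. The MYB core occurred in 8 of the 9 genes, against 80.3% of all windows. The Piwil1 window held 4 copies, starting 189, 139, 73 and 64 bases before the start site, and 11.8% of all windows held at least 4. The Asz1 stretch held neither motif.

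Estimated fragment counts over all listed genes summed to 5194238 to 14578341 per L/Z library and 9900346 to 23498968 per P0 library. All 10 genes passed the filter on low counts at both stages. The targeted genes followed the labels. Pld6 had 344 and 352 counts in WT L/Z libraries and 0 in both Pld6 KO libraries, at least 87.8-fold lower (adjusted p = 0.000257, edgeR), and 40 to 57 counts in WT P0 libraries against 0 to 2 in Pld6 KO and 0 in DKO libraries. Dnmt3l had 11 to 19 counts in WT and 0 in Dnmt3l KO L/Z libraries, and 53 to 72 in WT against 0 to 3 in Dnmt3l KO and DKO libraries at P0. Markers of L/Z spermatocytes such as Sycp3 and Dmc1 were all detected in the sorted cells, and their summed level over 12 genes was 1140 to 2160 FPKM in WT, 1380 to 2200 in Pld6 KO and 3750 to 4120 in Dnmt3l KO. FPKM are fragments scaled to transcript length and to library size. Sertoli cell markers, which sorting should remove, were also present, at 253 to 381 FPKM over 8 genes in WT, 238 to 372 in Pld6 KO and 78.9 to 248 in Dnmt3l KO.

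In WT L/Z spermatocytes the 10 genes spanned about 2 orders of magnitude in FPKM, a scale that allows genes of different length to be compared. Fkbp6 (314 and 365 FPKM) and Mael (263 and 369) were highest and overlapped each other. Ddx4 followed at 164 and 222 FPKM and Mov10l1 at 101 and 152. DDX4, the mouse VASA homolog, is an RNA helicase of the germ granules, where MAEL also acts. Piwil2 (88.6 and 87.5 FPKM) and Gtsf1 (84.4 and 90.8) did not differ beyond the spread of their libraries. Asz1 came next at 47.5 and 53.4 FPKM. Henmt1 (16.8 and 13.4 FPKM), Piwil1 (8.02 and 8.81) and Piwil4 (4.92 and 2.40) were lowest. Thus Piwil2 was the most abundant PIWI transcript in the sorted cells, and the ranges of the PIWI genes did not overlap.

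The order was similar in WT P0 testes, at lower levels for each gene. Mael led with 47.3 and 41.5 FPKM, ahead of Fkbp6 at 27.4 and 26.1 and Ddx4 at 22.2 and 15.6. Piwil2 (12.2 and 9.36) overlapped Gtsf1 (9.93 and 10.4), and Asz1 (7.43 and 4.99) overlapped Mov10l1 (5.20 and 4.58). The 3 lowest genes were again Piwil4 at 1.45 and 1.62 FPKM, Henmt1 at 1.33 and 0.875, and Piwil1 at 0.704 and 0.594, with no overlap between neighbours. The WT mean in L/Z cells was from 2.39 times (Piwil4) to 26.0 times (Mov10l1) that in P0 testes, and Piwil1, 9th at L/Z and 10th at P0, differed by 13.0 times. Because the tables were normalized separately and whole newborn testes consist largely of somatic cells, these ratios carry no test. In such bulk samples, fewer germ cells and less RNA per germ cell cannot be told apart.

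**Figure D1:**
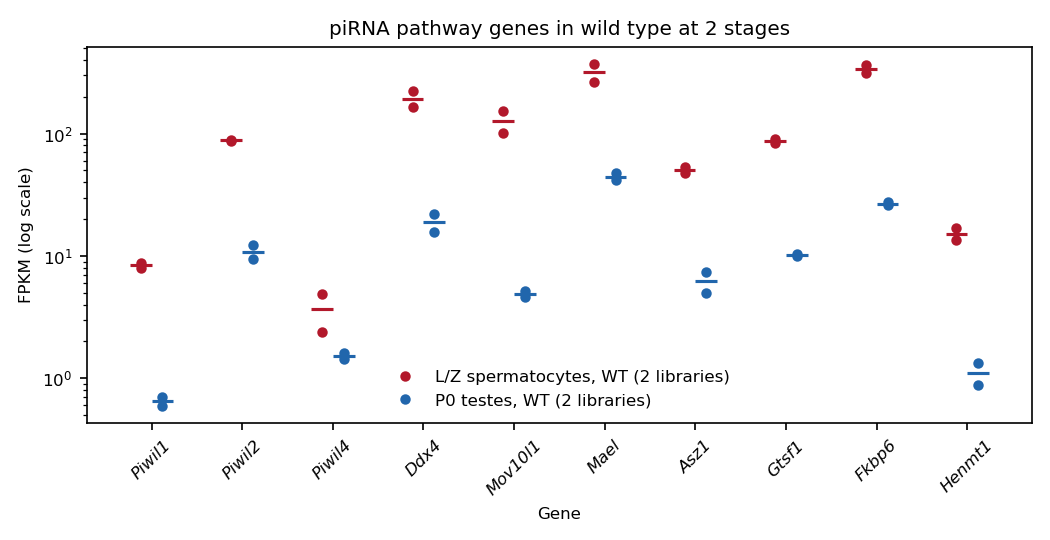
FPKM (log axis) of the 10 genes in the 2 WT libraries of L/Z spermatocytes (red) and of P0 testes (blue), where points are libraries and short lines the group means. Mael and Fkbp6 lead at both stages, Piwil1 and Piwil4 are among the 3 lowest, and the distance between the stages is smallest for Piwil4 and widest for Mov10l1.

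In Dnmt3l KO L/Z spermatocytes, Piwil1 and Henmt1 fell, and the other 8 genes did not pass the test, by which a gene was called at an adjusted p under 0.05 and a fold change over 2 in edgeR's quasi-likelihood test. Called genes made up 5.47% of the 14662 tested (802 genes), and genes called lower 1.58%. An unadjusted p under 0.05 in this test was reached by 5 of the 10 genes, and by 26.7% of all genes. The 10 genes moved in both directions, 5 up and 5 down, and their median was -0.20 on the log2 scale (all genes tested, -0.04). Dnmt3l KO libraries lay entirely above WT for 2 genes, Ddx4 and Asz1, and entirely below for 4, Piwil1, Gtsf1, Fkbp6 and Henmt1, where 28.1% and 27.5% of all genes did so.

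Piwil1 stood at 8.02 and 8.81 FPKM in the WT libraries. It was 3.30 and 5.06 FPKM without Pld6, and 1.68 and 1.75 FPKM without Dnmt3l. The 3 genotypes did not overlap, and both Dnmt3l KO libraries were low. The log2 fold change of Dnmt3l KO against WT was -2.29 (SE 0.31, 4.9-fold lower, adjusted p = 0.00514, edgeR). It ranged from -2.48 to -1.79 over the other ways of processing the data. Without Dnmt3l KO replicate 1, the shallower library, it was -2.27 with an adjusted p of 0.0988, and the number of genes called among all tested went from 802 to 1.

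The other PIWI genes were not called. Piwil2 overlapped, with 88.6 and 87.5 FPKM in WT and 105 and 83.8 in Dnmt3l KO (log2 fold change 0.09, SE 0.22, adjusted p = 0.819, edgeR). Piwil4, which in WT acts mainly in fetal germ cells, had 4.92 and 2.40 FPKM in WT and 1.66 and 2.40 in Dnmt3l KO (-0.81, SE 0.45, adjusted p = 0.271). Its counts were low, at 20 to 142 per library, and its second WT library equalled the second mutant library. The fold change was -0.20 without WT replicate 1 and -0.25 with a term for the libraries richest in ribosomal RNA. Among the PIWI genes the fall was thus called for Piwil1 alone, although whether Piwil1 and Piwil4 differed in their change was not tested.

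Of the helicases, Ddx4 was higher in both Dnmt3l KO libraries (311 and 306 FPKM) than in WT (164 and 222), by 0.67 on the log2 scale (SE 0.25, adjusted p = 0.12, edgeR). Mov10l1 spread widely within Dnmt3l KO, at 202 and 125 FPKM against 101 and 152 in WT (0.35, SE 0.28, adjusted p = 0.446). Neither helicase was called.

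Among the granule and loading factors, Asz1, which encodes a scaffold of the mitochondrial outer membrane, had nearly identical levels in both Dnmt3l KO libraries, 91.2 and 91.1 FPKM, against 47.5 and 53.4 in WT and 55.2 and 57.7 in Pld6 KO. Its log2 fold change of 0.85 (SE 0.20, adjusted p = 0.0305, edgeR) passed the p threshold, as did 7.2% of all genes, but not the fold threshold, being 1.8-fold. Corrected per library for transcript GC and length it was 0.23 (adjusted p = 0.506). The Asz1 transcript has the lowest GC content of the 10, 36.3%, where the others have 43.1% to 52.5%. That correction was chosen after seeing the data, and the part of GC content in the Asz1 change was not tested. Leaving out Dnmt3l KO replicate 1, Dnmt3l KO replicate 2 or WT replicate 1 gave adjusted p-values of 0.152, 0.0701 and 0.144.

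Gtsf1, a small zinc finger protein that binds PIWI proteins, ran the other way, with 84.4 and 90.8 FPKM in WT and 34.3 and 64.3 in Dnmt3l KO (-0.80, SE 0.30, adjusted p = 0.119, edgeR). Fkbp6 was at 314 and 365 FPKM in WT and 185 and 292 in Dnmt3l KO (-0.49, SE 0.25, adjusted p = 0.236). For both genes it was the first Dnmt3l KO library that lay far below WT, and without Dnmt3l KO replicate 2 the Gtsf1 change was -1.38 with an adjusted p of 0.0471. Without Dnmt3l KO replicate 1 it was -0.45 with an adjusted p of 0.41. Leaving out one or the other of these libraries moved Fkbp6 between -0.88 and -0.21. Mael overlapped, at 263 and 369 FPKM in WT and 310 and 381 in Dnmt3l KO (0.13, SE 0.24, adjusted p = 0.77). The sign for Mael turned with the scaling, to -0.09 with the GC and length offset and to -0.01 with the ribosomal RNA term.

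Henmt1, which protects piRNA 3′ ends by methylation, had 5.24 and 8.51 FPKM in Dnmt3l KO, where WT had 16.8 and 13.4 and Pld6 KO 12.6 and 16.2. Both Dnmt3l KO libraries were below all other L/Z libraries. The log2 fold change against WT was -1.16 (SE 0.31, 2.24-fold lower, adjusted p = 0.0468, edgeR), which lies close to the threshold. The call was lost without Dnmt3l KO replicate 1 (-0.90, adjusted p = 0.25), without Dnmt3l KO replicate 2 (-1.58, 0.0554) and without WT replicate 1 (-0.98, 0.189), and also with the GC and length offset (0.0744), the ribosomal RNA factor (0.0556) and limma on FPKM (0.0892). The annotated span of Henmt1 runs into that of the neighbouring gene Fam102b, whose level was 4.14 and 3.41 FPKM in WT and 4.42 and 5.47 in Dnmt3l KO.

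**Figure D2:**
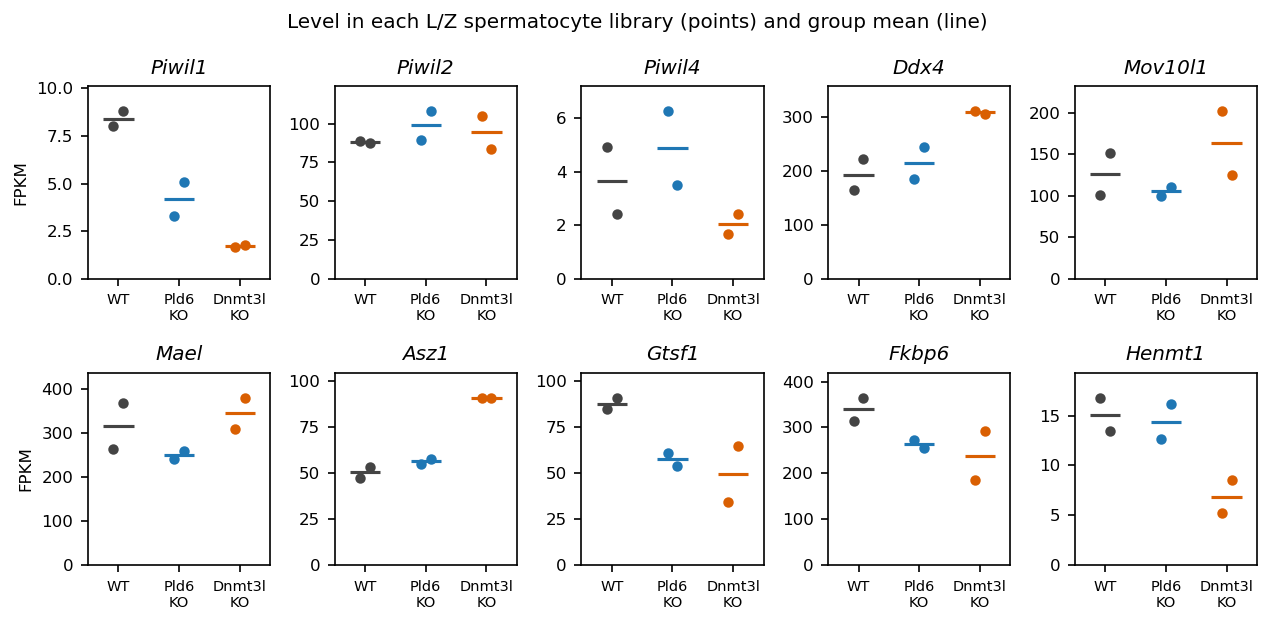
FPKM of each of the 10 genes in the 6 L/Z spermatocyte libraries (points; vertical axes start at 0, scales differ between panels), with the group mean as a line for WT (grey), Pld6 KO (blue) and Dnmt3l KO (orange). Piwil1 steps down from WT through Pld6 KO to Dnmt3l KO without overlap, Henmt1 is low in both Dnmt3l KO libraries, and Asz1 lies at 91.2 and 91.1 FPKM there.

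Marker sums of L/Z spermatocytes and of spermatogonia also differed between Dnmt3l KO and WT, while those of pachytene and later cells overlapped. The L/Z marker sum was higher in both Dnmt3l KO libraries than in WT, as given above, and 7 spermatogonial markers summed to 528 and 996 FPKM in Dnmt3l KO, below the 1080 and 1160 in WT, with 861 and 962 in Pld6 KO. The 16 markers of pachytene and later cells summed to 305 and 189 FPKM in Dnmt3l KO, 104 and 134 in Pld6 KO and 104 and 250 in WT, and 2 to 4 of them were at 0 in each library. The part of these shifts in the changes of Piwil1, Henmt1 and Asz1 was not tested. The 45S pre-ribosomal RNA gene took 8.27% of the counts of the first WT library, 8.06% of the first Pld6 KO library, and at most 0.3% in the other L/Z libraries.

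In Pld6 KO L/Z spermatocytes none of the 10 genes was called (0 of 10, edgeR; 0 with DESeq2 and with limma), where 0.225% of all genes were (33 genes). At an unadjusted p under 0.05 there was 1 gene, Piwil1, where 9.17% of all genes reached that level. Its log2 fold change was -1.0 (SE 0.29, 1.99-fold lower, adjusted p = 0.326), and leaving out single libraries moved it between -1.36 and -0.72. Gtsf1 was next, with 60.7 and 53.8 FPKM against 84.4 and 90.8 in WT (-0.61, SE 0.30, adjusted p = 0.56). Pld6 KO libraries lay below WT for 4 genes (Piwil1, Gtsf1, Fkbp6 and Mael) and above it for 2 (Piwil2 and Asz1), as did 21.3% and 21.6% of all genes. The fold changes of the other 8 genes lay between -0.35 and 0.41 on the log2 scale.

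**Figure D3:**
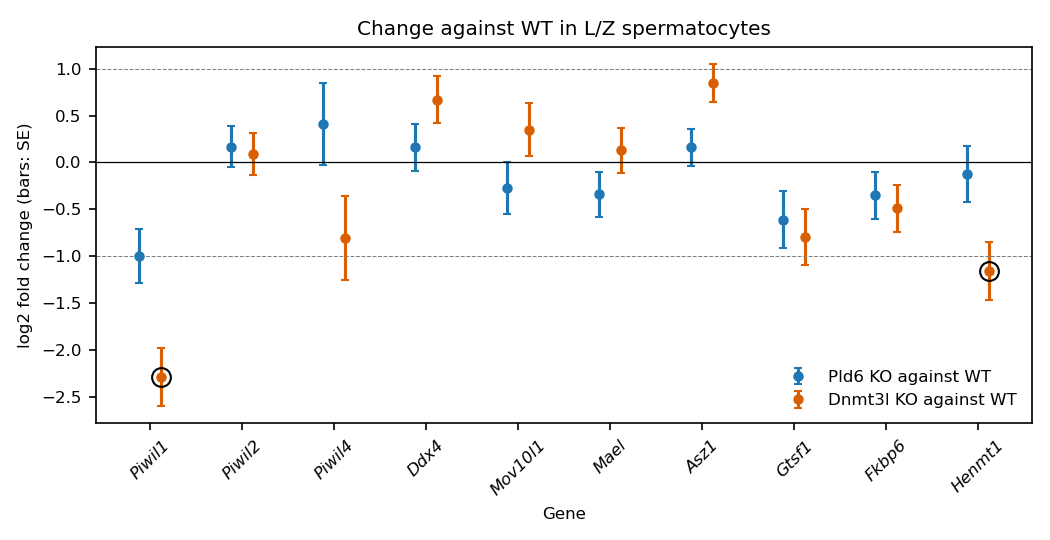
Log2 fold change against WT in L/Z spermatocytes, with SE as bars, for Pld6 KO (blue) and Dnmt3l KO (orange); dashed lines mark a fold of 2 and black circles the 2 called values, Piwil1 and Henmt1 in Dnmt3l KO. Both mutants are compared with the same 2 WT libraries.

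The mutants were also compared directly. No gene of the 10 was called between Dnmt3l KO and Pld6 KO L/Z cells (0 of 10, against 0.0477% or 7 of all genes), and 4 had an unadjusted p under 0.05, where 17.5% of all genes did. These were Piwil1 (-1.30, SE 0.31, adjusted p = 0.124, edgeR), Piwil4 (-1.22, SE 0.46, 0.215), Henmt1 (-1.05, SE 0.31, 0.166) and Asz1 (0.68, SE 0.20, 0.159). With the DESeq2 Wald test 1 gene was called, Piwil1 (-1.30, adjusted p = 0.0159). Piwil4 was at 6.27 and 3.52 FPKM in Pld6 KO, above both Dnmt3l KO libraries.

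At P0 no gene of the 10 was called in any comparison, but the genes shared part of their movement from library to library. Pld6 KO replicate 1 had the lowest level of all 11 libraries for each of the 10 genes. The genes summed to 49.8 FPKM there and to 97.1 to 186 FPKM in the other P0 libraries. Expressed as log2 counts scaled to library size (CPM) and centred on each gene's mean over the 11 libraries, the mean over the 10 genes was -1.39 in that library, between -0.44 and 0.35 in 9 others and 0.58 in Dnmt3l KO replicate 1. Newborn germ cell markers (Dazl, Dnd1, Nanos2, Nanos3, Tex101 and Taf7l) were likewise lowest in Pld6 KO replicate 1 and highest in Dnmt3l KO replicate 1. They summed to 36.1 and 150 FPKM there and to 55.2 to 97.7 in the others. The ratio of the 2 sums lay between 1.24 and 2.5. The other germ cell lists did not place Pld6 KO replicate 1 lowest. Its spermatogonial markers summed to 71.3 FPKM, above DKO replicate 2 (65.1), and its L/Z markers to 34.6, above WT replicate 2 (34.0). Its markers of pachytene and later cells summed to 57.2 FPKM, below only Dnmt3l KO replicate 1 (108). In Dnmt3l KO replicate 2 the genes parted, with centred values from -0.983 (Gtsf1) to 0.953 (Piwil4). The standard deviation within groups of the genes' median log2 CPM was 0.62 at P0 and 0.16 at L/Z.

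**Figure D4:**
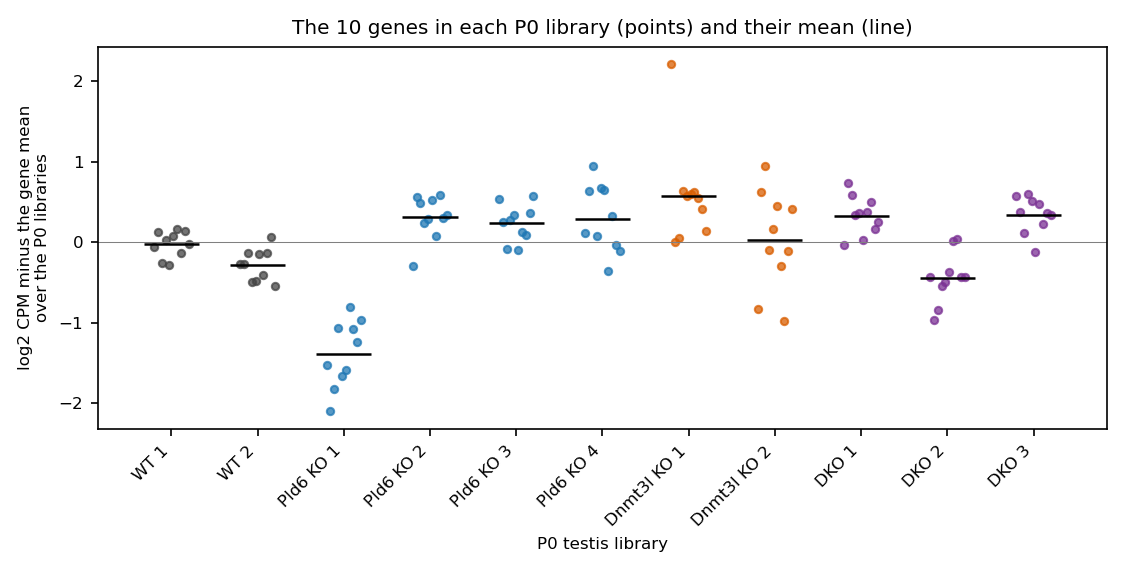
Log2 CPM of the 10 genes in each P0 testis library, less each gene's mean over the 11 libraries (points), with the mean over the genes as a line; colours give the genotype. All 10 points of Pld6 KO replicate 1 lie below 0, and the single high point of Dnmt3l KO replicate 1 is Piwil1.

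Over the 12120 genes with at least 5 CPM, the 5 other genes whose centred profile was nearest to this mean were Dazl (root mean square difference 0.10 on the log2 scale over 11 libraries), Slc25a31 (0.18), Mageb4 (0.18), Tcfl5 (0.20) and Topaz1 (0.20). Dazl encodes a germ cell RNA-binding protein and is one of the markers above. The 10 genes themselves lay between 0.16 (Ddx4) and 0.61 (Piwil1) from their mean, and the median gene at 0.59. Piwil1 was thus the member farthest from this mean, to which each of the 10 genes contributed. Its centred value was 2.212 in Dnmt3l KO replicate 1, and its P0 counts were low, at 8 to 171 per library. The cut at 5 CPM was not applied to the 10 genes.

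In P0 Pld6 KO testes the log2 fold changes against WT ranged from -0.14 to 0.53, with a median of 0.20 against 0.02 over all genes, and all 10 genes overlapped between the groups, where 5.83% of all genes lay wholly above and 5.69% wholly below WT. No gene was called, and none had an unadjusted p under 0.05 (edgeR), as 5.06% of all genes had; DESeq2 and limma also called 0 of 10. Called genes were 0.00629% of the 15901 tested. Without Pld6 KO replicate 1 the median was 0.48. The highest value was that of Mov10l1, at 5.20 and 4.58 FPKM in WT and 1.95, 7.80, 8.14 and 10.3 in Pld6 KO (0.53, SE 0.46, adjusted p = 0.97). Piwil2, the main PIWI protein of this stage, was at 2.54, 16.6, 13.4 and 17.5 FPKM in the Pld6 KO libraries and 12.2 and 9.36 in WT. Piwil4 ran from 0.363 to 3.61 FPKM in Pld6 KO, on both sides of the 1.45 and 1.62 in WT.

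In P0 Dnmt3l KO testes all 10 log2 fold changes were above 0, from 0.07 to 1.71 with a median of 0.55 (all genes 0.03), but none was called. Of all genes, 0% were called by edgeR and 12.9% had an unadjusted p under 0.05, against 0 of the 10. Without Dnmt3l KO replicate 1 the median was 0.29, and in replicate 2 the FPKM of Asz1, Gtsf1, Fkbp6 and Piwil1 lay below the WT mean. DESeq2, which called 71 genes in all, and limma called 0 of the 10. Both Dnmt3l KO libraries exceeded WT for Henmt1, Mael, Mov10l1 and Piwil4 (4 of 10, where 25.3% of all genes did so). Mael had 67.2 and 60.4 FPKM against 47.3 and 41.5 in WT, and Mov10l1 9.44 and 7.09 against 5.20 and 4.58 (0.78, SE 0.52, adjusted p = 0.534). Piwil1 had the highest estimate, 1.71 (SE 0.86, adjusted p = 0.413), which came from 1 library. Its level was 3.83 and 0.357 FPKM (171 and 16 counts) in Dnmt3l KO and 0.704 and 0.594 (32 and 27 counts) in WT, and without Dnmt3l KO replicate 1 the log2 fold change was -0.84. That library also stood apart in markers of later germ cells, with 146 FPKM over the 12 L/Z markers, where the other P0 libraries had 34.0 to 70.3, and 108 FPKM over the 16 markers of pachytene and later cells, where the others had 28.6 to 57.2. Whether that library held later germ cells was not tested, nor was their part in its Piwil1 level.

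In P0 DKO testes the genes lay between -0.12 and 0.59 on the log2 scale (median 0.37, all genes 0.01). None was called by edgeR, DESeq2 or limma, where 0.0126% of all genes were called by edgeR, and none had an unadjusted p under 0.05, as 7.97% of all genes had. Mov10l1 was again the highest, at 8.16, 4.46 and 9.09 FPKM (0.59, SE 0.48, adjusted p = 0.814). Gtsf1 was the 1 gene above WT in all 3 DKO libraries, at 16.1, 11.2 and 13.2 FPKM against 9.93 and 10.4 in WT, where 15.7% of all genes were. Against the single mutants 0 of 10 genes were called too, with medians of 0.08 (Pld6 KO) and -0.17 (Dnmt3l KO), where 0% and 0.0755% of all genes were called. Both medians changed sign when 1 library was left out, the first to -0.19 without Pld6 KO replicate 1 and the second to 0.11 without Dnmt3l KO replicate 1. A departure of the DKO from additivity of both mutations was called for 0 of the 10, as for 0% of all genes, with estimates from -1.44 (Piwil1) to 0.18 (Asz1).

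The effect of each mutation was then compared between the stages in 1 fit over 14 libraries, in which stage cannot be told apart from tissue and read type. For Dnmt3l KO, Piwil1 differed by -4.02 (SE 1.08), with an adjusted p of 0.091 (edgeR). Without P0 Dnmt3l KO replicate 2 it was -4.89 (adjusted p = 0.0106), and without P0 Dnmt3l KO replicate 1 it was -1.50. Henmt1 differed by -1.85 (SE 0.67, adjusted p = 0.183), and by -2.01 without P0 Dnmt3l KO replicate 1. Accordingly 0 of the 10 genes were called, 2 had an unadjusted p under 0.05 (17.2% of all genes did), and 0.665% of all 16547 genes were called. For Pld6 KO 0 of 10 genes were called, where 0.0121% of all genes were, and the differences ran from -1.07 (Piwil1) to 0.24 (Asz1) with none at an unadjusted p under 0.05, as 9.52% of all genes were.

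Other genes of the piRNA pathway were drawn from a list of 18, of which 17 were measured. In Dnmt3l KO L/Z cells 1 rose, 1 fell and 15 were not called, where 5.47% of all genes were called. The median log2 fold change was 0.27 (all genes tested, -0.04). Without the fold threshold 3 of the 17 passed, as did 7.2% of all genes (edgeR). An unadjusted p under 0.05 was reached by 8, and by 26.7% of all genes. Mybl1, the transcription factor that switches on pachytene piRNA genes, rose from 7.85 and 12.8 FPKM in WT to 69.1 and 47.2 (log2 fold change 2.49, SE 0.31, 5.63-fold, adjusted p = 0.00345, edgeR; 0.0822 without Dnmt3l KO replicate 1). With the GC and length offset it was 1.84 (adjusted p = 0.012). In Pld6 KO it was at 23.5 and 36.0 FPKM (1.54, SE 0.30, adjusted p = 0.0886). The genotypes thus ran in the reverse order for Mybl1 and Piwil1, in both cases without overlap. For both genes edgeR called only Dnmt3l KO against WT, and a link between them was not tested. Tdrd6, a Tudor domain protein of the chromatoid body, fell from 28 and 44 counts in WT to 2 and 2 in Dnmt3l KO (adjusted p = 0.0241, edgeR). Scaled to library size, the summed WT counts were 14.5 times the Dnmt3l KO counts, with an exact 95% interval of 5.42 to 54.6 that covers counting error only. The call was lost without either WT library (0.0638 and 0.0577) or either Dnmt3l KO library (0.152 and 0.122).

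Pnldc1, Tdrkh, Tdrd1 and Tdrd9, also on the list, were not called. Pnldc1, the enzyme that trims piRNA 3′ ends, had 21.8 and 31.4 FPKM in Dnmt3l KO, where WT had 42.8 and 38.7 and Pld6 KO 38.6 and 29.9 (-0.60 against WT, SE 0.25, adjusted p = 0.155, edgeR). Tdrkh, its mitochondrial partner, was at 48.4 and 66.4 FPKM in WT and 72.9 and 72.5 in Dnmt3l KO (0.34, SE 0.23, 0.361). Tdrd1, which scaffolds PIWIL2, had 39.3 and 37.5 FPKM in WT and 22.8 and 28.1 in Dnmt3l KO (-0.59, SE 0.21, 0.101), and Tdrd9, a helicase that acts with PIWIL4, 44.9 and 56.8 against 31.9 and 30.2 (-0.72, SE 0.21, 0.0634). In Pld6 KO L/Z cells Pld6 was the 1 list gene called. Between the mutants at L/Z the list gave 1 call, again Pld6. At P0 the list gave 1 lower call in DKO against WT and 1 in DKO against Dnmt3l KO, in both cases Pld6, and none in the other comparisons. Pld6 was at least 18.3-fold lower in DKO than in WT (adjusted p = 0.0299, edgeR), but P0 Pld6 KO was not called (adjusted p = 0.0585). There the WT level was 37.9 times that of the mutant, with an exact 95% interval of 15.7 to 119 for counting error. At P0 Mybl1 ranged from 6.60 to 11.9 FPKM over the 11 libraries, and its Dnmt3l KO effect differed between the stages by 2.39 (SE 0.41, adjusted p = 0.0294, edgeR), a call that leaving out any of 5 single libraries removed (adjusted p of 0.0758 to 0.125).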

How the data were processed

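PolyA(+) RNA libraries were made with a stranded kit. The authors aligned reads to mm10 with TopHat2 and quantified RefSeq genes with Cuffdiff, versions not given in the sources used here. The deposited tables hold estimated counts of fragments per gene and library (97.8% and 97.7% whole) and FPKM, scaled by Cuffdiff to transcript length and library size. Tables number replicates from 0 and labels from 1, and were matched in rank order, on which no group depends. Genes with a failed status were dropped (6 at L/Z, 2 at P0).

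Rounded counts went into edgeR 4.0.16 under R 4.3.3 (filterByExpr, TMM, quasi-likelihood), all groups of a stage in 1 fit, adjusted over all genes (Benjamini-Hochberg) and called at adjusted p under 0.05 and a fold over 2 (interactions by p alone). DESeq2 1.42.0 and limma 3.58.1 (log2(FPKM + 1)) were alternatives. Against a group at 0, a fold is a lower bound set by 3 counts per library; for a group at up to 2 counts per library, summed counts give a ratio with an exact (Clopper-Pearson) interval. Scripts were tested on simulated data. FPKM describe levels and carry no test. Coordinates and promoters are from RefSeq GRCm38.p6. The 10 genes, the pathway list and the markers were chosen with earlier results of these data known. The genes named are the 10 members, 6 preset pathway genes (Pld6, Pnldc1, Tdrkh, Tdrd1, Tdrd9, Mybl1), any other pathway gene called, and the 5 genes of at least 5 CPM nearest to the members' mean P0 profile; Fam102b and Dnmt3l were added after seeing the data. Python 3.11.15 and matplotlib 3.10.9 were used. Alternatives are listed in the closing section.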

Additional observations from a re-analysis of the deposited data

Results flagged for a closer look

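In the group of 4 P0 Pld6 KO libraries, replicate 1 stood apart for the summed newborn germ cell markers, at 36.1 FPKM where the other 3 libraries had 81.4 to 87.9; its gap to the nearest library was 0.875 of the range, past Dixon's 95% critical value for 4 samples. For the 10 piRNA genes singly the gap was 0.399 to 0.787 and for their sum 0.77, under that value. In a single such test chance flags about 1 in 20 groups. Here the 10 genes, their sum and the marker sum were each tested, so a flag by chance is more likely than that.

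The effect of Dnmt3l KO differed between L/Z cells and P0 testes for 2 genes of the pathway list in a test of the difference itself (edgeR). For Mybl1 the difference was 2.39 on the log2 scale (SE 0.41, adjusted p = 0.0294), and for Tdrd6 it was -4.58 (SE 0.96, adjusted p = 0.0456). The Tdrd6 estimate rests on 2 counts in each L/Z Dnmt3l KO library, so its size depends on the prior count of the fit and is no bound. Of all 16547 genes, 0.665% were called in this test. The Mybl1 call was lost without L/Z Dnmt3l KO replicate 1 (0.125), L/Z WT replicate 1 (0.0758), P0 Dnmt3l KO replicate 1 (0.12), P0 WT replicate 1 (0.101) or P0 WT replicate 2 (0.113), and with the GC and length offset (0.059). The Tdrd6 call was lost on leaving out each of 11 of the 14 libraries in turn, with adjusted p-values up to 0.203. In each case the direction was shared by both Dnmt3l KO L/Z libraries against both WT libraries.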

How the results depend on the processing

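The count of the 10 genes called in Dnmt3l KO against WT L/Z cells was 2, and became 1 (Piwil1) with the GC and length offset, the ribosomal RNA factor or limma, 3 (with Asz1) without the fold threshold, and 0 to 2 when single libraries were left out (0 without Dnmt3l KO replicate 1, 1 without WT replicate 1). Between Dnmt3l KO and Pld6 KO it was 0, but 1 with DESeq2. For the stage difference of Dnmt3l KO it was 0 to 1 without single libraries. In the other comparisons the count was 0 under each alternative run. Directions were followed only for fold changes of the 10 genes printed above with an SE, at P0 those of Mov10l1 and Piwil1. This left out Asz1, Gtsf1 and Fkbp6 at P0, whose FPKM in Dnmt3l KO replicate 2 lay below the WT mean. Among those followed, directions turned in Dnmt3l KO against WT L/Z cells for Mael, Mov10l1 and Piwil2. Mael was -0.09 with the offset, -0.01 with the ribosomal RNA factor and -0.10 to 0.40 without single libraries. Mov10l1 ran from -0.02 to 0.68 and Piwil2 from -0.07 to 0.23. At P0 the direction turned for Piwil1 (-0.84 to 2.56). None of these was called. The cause was not tested.

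Counts over all genes depended more on the settings. Of 802 in Dnmt3l KO against WT L/Z cells, 270 were counted with the offset, 68 with limma and 1 to 1139 without single libraries (149 without WT replicate 1). Of 33 in Pld6 KO, the count was 90 with DESeq2, 1 in a fit of the compared groups, 101 with the ribosomal RNA factor, 9 with limma, 74 without the filter on low counts and 7 to 74 without single libraries. Of 7 between the mutants, it was 358, 181, 25, 13 and 193 in the same order, 3 with DESeq2 size factors, 16 with the offset and 0 to 215. At P0, DESeq2 gave 14 (Pld6 KO, edgeR 1), 71 (Dnmt3l KO, 0), 62 (DKO, 2), 5 and 261 (DKO against Pld6 KO, 0, and Dnmt3l KO, 12) and 71 (departure, 0). A fit of the compared groups gave 4 for Pld6 KO, 2 for Dnmt3l KO, 102 for DKO and 109 between DKO and Dnmt3l KO; no filter gave 4 for Pld6 KO, 8 for DKO and 91 for the last, which was 2 with the offset; limma gave 1 for Dnmt3l KO. Without single libraries the P0 counts were 1 to 4 (Pld6 KO), 0 to 56 (Dnmt3l KO), 1 to 6 (DKO), 0 to 2 and 0 to 121 (DKO against Pld6 KO and Dnmt3l KO) and 0 to 16 (departure). The stage difference of Dnmt3l KO (110) was 707 with DESeq2, 51 with the offset, 44 in the fit of the compared groups and 2 to 306 without single libraries, and that of Pld6 KO (2) 53, 4 in that fit, 13 with limma, 10 unfiltered and 1 to 15.

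The labels give no meaning to shared replicate numbers, which were not taken as pairs. Same-number correlations of deviations at L/Z were 0.485 between WT and Pld6 KO, whose first libraries both held much ribosomal RNA, and -0.144 and -0.135 with Dnmt3l KO, and -0.332 to 0.271 at P0. The replicate block left the counts of the 10 genes as they were (2 in Dnmt3l KO against WT at L/Z, 0 elsewhere). Over all genes it gave 4 where 7 had been called between the mutants at L/Z, 28 of 110 for the Dnmt3l KO stage difference, and at P0 12 in DKO against WT and 0 in DKO against Dnmt3l KO and in Pld6 KO. With the pairing crossed for Dnmt3l KO, tried after seeing the data, 2 of the 10 genes were called between the mutants, and 1282, 100 and 516 of all genes in Dnmt3l KO, Pld6 KO and between the mutants. The GC and length offset was also chosen after seeing the data.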
